A study of Homo sapiens with 21 samples.

Results

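HCC4006 is an established human lung adenocarcinoma cell line driven by a mutated epidermal growth factor receptor (EGFR), and it was made resistant to EGFR inhibitors on 2 separate occasions. HCC4006ER was derived under erlotinib from the stock HCC4006P1, and HCC4006GR under gefitinib from the stock HCC4006P2. The direct difference of both resistant lines is described here from 3 of the 21 libraries of the series, chosen by their cell line labels. These were replicates 1 and 2 of HCC4006ER and the single library of HCC4006GR. All were grown in RPMI medium with serum per the labels, which do not say whether the drug was present at harvest, and were profiled by mRNA sequencing. The 2 parental libraries, HCC4006P1 replicate 2 and HCC4006P2, are shown beside them. HCC4006P1 replicate 1 was left out, because its counts stop within chromosome 7. Past that point 1679 genes reached 50 counts in replicate 2, and 0 of them were counted in replicate 1. Each resistant line is 1 derivation from 1 stock, and the labels give each pair a different reference. The drug, the source, the parental stock and the preparation of the libraries therefore cannot be told apart in this comparison.

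Erlotinib and gefitinib both occupy the ATP pocket of EGFR, a receptor tyrosine kinase that signals through the RAS-ERK and PI3K-AKT pathways. Epithelial cells hold together through E-cadherin junctions, tight junctions and desmosomes, and this programme is kept up by transcription factors of the GRHL, OVOL and ELF families and by the ESRP splicing factors. In epithelial-to-mesenchymal transition (EMT), ZEB, SNAI and TWIST factors repress these genes while vimentin, collagens and other matrix genes rise. EMT is a known route by which EGFR-mutant lung cancer cells survive EGFR inhibitors.

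The libraries of HCC4006ER held 19763806 and 19471160 counts on genes, that of HCC4006GR 15107338, that of HCC4006P1 19498932 and that of HCC4006P2 13608332. A level is given in CPM, the count scaled to the library's total on genes, in which 3 counts, taken as the smallest detected number, are 0.152 and 0.154 CPM in HCC4006ER and 0.199 CPM in HCC4006GR. A difference is given on the log2(CPM + 1) scale, HCC4006ER (mean of 2) minus HCC4006GR, which understates the change of low genes. The HCC4006ER libraries differed by a median of 0.11 on this scale, the 99th percentile was 0.56, and 0 of 18183 genes were 4-fold apart between them. They differed by more than counting error (chi-square per degree of freedom 5.16), and nothing says that they came from separate cultures. HCC4006GR and each parental stock had no replicate, so the test, the quasi-likelihood test of edgeR with Benjamini-Hochberg adjustment, takes its spread from HCC4006ER alone and assumes that the other lines vary alike. Of the reads on genes, outside genes or ambiguous, those outside annotated genes made up 9.95% and 9.03% in HCC4006ER, 7.80% in HCC4006P1, 15.6% in HCC4006GR and 13.8% in HCC4006P2. This share separated the pairs, and its part in the results was not tested. Counts with several alignments, left out of it, were 9183288 and 8848399 in HCC4006ER, 10360718 in HCC4006P1, 4677880 in HCC4006GR and 4203984 in HCC4006P2.

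HCC4006ER and HCC4006GR differed across much of the transcriptome. Of 18183 genes tested, 5791 (31.8%) were called higher in HCC4006ER and 5569 (30.6%) higher in HCC4006GR at an adjusted p under 0.05. Large differences were fewer and lay mostly on 1 side, since 387 genes (2.13%) were called and at least 4-fold higher in HCC4006ER, and 942 (5.18%) in HCC4006GR. The number called fell from 11360 to 7648 with all complete libraries of the series in the fit and to 6175 with DESeq2. With 1 HCC4006ER library left out, the 5 libraries have no spread of their own, so each such fit used all other complete libraries, takes its spread from the replicate pairs of HepG2 and HepG2S3, both liver cancer lines, and assumes that HCC4006 varies alike. Against the 7648 of the fit with all complete libraries, 4315 genes were called without HCC4006ER replicate 1 and 4015 without replicate 2. The number called and at least 4-fold apart was 1329, and it was 1305, 1241 and 1240 in these 3 fits. The accounts that follow lead with the 4-fold genes. The count called in a list is to be read beside the count of all genes called in the same fit. In the 5-library fit these were the 31.8% and 30.6% of all genes called higher in HCC4006ER and in HCC4006GR. With all complete libraries they were fewer, 3964 and 3684 of the 18183 genes, and fewer again with 1 HCC4006ER library left out. List counts of those fits are therefore not to be read beside 31.8% and 30.6%. In the parental stocks, where each side is 1 library and no test was made, 174 genes (0.957%) were at least 4-fold higher in HCC4006P1 and 723 (3.98%) in HCC4006P2. The median parental difference of all genes was -0.20, and -0.02 after scaling by TMM, so parental differences near -0.20 stand at the centre of the distribution. Across genes, the resistant and the parental difference had a Pearson r of 0.35, where the points share the same 5 libraries.

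**Figure D1:**
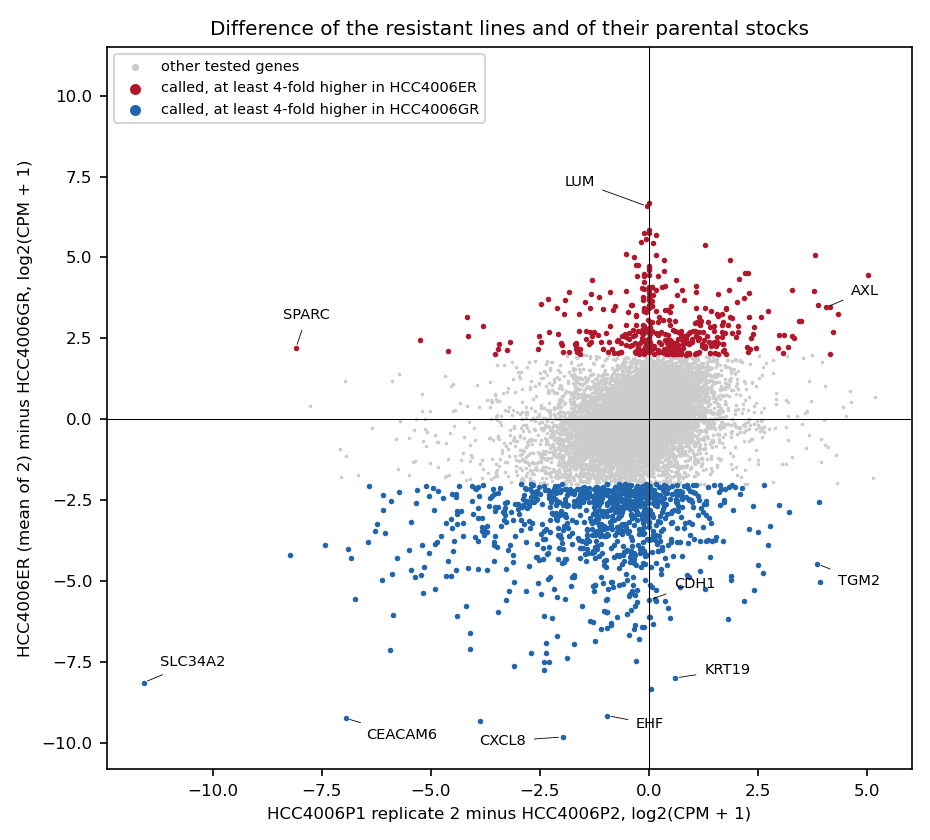
Difference of HCC4006ER (mean of 2 libraries) minus HCC4006GR on the vertical axis against HCC4006P1 replicate 2 minus HCC4006P2 on the horizontal axis, both as log2(CPM + 1), with 1 point for each tested gene. The 942 blue genes (higher in HCC4006GR) spread towards the left, where HCC4006P2 is also higher, while CDH1, KRT19 and EHF lie near a parental difference of 0.

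The epithelial programme separated the resistant lines. Most of its genes lay near the level of HCC4006P2 in HCC4006GR and far below that of HCC4006P1 in HCC4006ER. The gene of E-cadherin, CDH1 (chromosome 16, 68771195 to 68869440 on GRCh37), the adhesion receptor of epithelial junctions, had 8.60 and 10.4 CPM in HCC4006ER, 499 CPM in HCC4006GR, 485 CPM in HCC4006P1 and 482 CPM in HCC4006P2. HCC4006GR and both stocks lay close together, and HCC4006ER was the only line set apart. In bulk RNA, fewer cells with a transcript and less of it per cell cannot be told apart. CDH1 was 52.6 times higher in HCC4006GR than in HCC4006ER (edgeR log2 fold change -5.69 ± 0.13 (SE), adjusted p = 3.43e-05 with all complete libraries in the fit, and below the smallest number that can be stored in the 5-library fit). KRT19, a keratin of simple epithelia, had 2.63 and 1.59 CPM in HCC4006ER, 778 CPM in HCC4006GR, 1507 CPM in HCC4006P1 and 992 CPM in HCC4006P2. ST14, the membrane protease matriptase, had 0.658 and 0.514 CPM in HCC4006ER, 276 CPM in HCC4006GR, 229.6 CPM in HCC4006P1 and 280.5 CPM in HCC4006P2. Both genes lay under 3 CPM in HCC4006ER and above 200 CPM in every other library. EPCAM, an epithelial adhesion molecule, had 25.2 and 23.01 CPM in HCC4006ER, 270.5 CPM in HCC4006GR, 369 CPM in HCC4006P1 and 344 CPM in HCC4006P2, which left a measurable level in HCC4006ER at a difference of -3.44 (edgeR adjusted p = 1.03e-185 with 5 libraries and 1.72e-05 with all complete libraries in the fit).

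Among the regulators of this programme, ESRP1, the splicing factor of epithelial exon choices, had 0.405 and 0.411 CPM in HCC4006ER, 113 CPM in HCC4006GR, 149 CPM in HCC4006P1 and 186 CPM in HCC4006P2. GRHL2, a transcription factor that activates junction genes, had 0.304 and 0.411 CPM in HCC4006ER, 45.5 CPM in HCC4006GR, 90.5 CPM in HCC4006P1 and 88.4 CPM in HCC4006P2. Neither reached 1 CPM in HCC4006ER, and in HCC4006GR both lay below their level in HCC4006P2. EHF, an epithelial ETS factor, had 0.557 and 0.308 CPM in HCC4006ER, 807 CPM in HCC4006GR, 531 CPM in HCC4006P1 and 1034 CPM in HCC4006P2, and it lies in a stretch of chromosome 11 where nearly all genes were lower in HCC4006ER. SPDEF, another epithelial ETS factor, had 0 and 0.103 CPM in HCC4006ER, 63.5 CPM in HCC4006GR, 44.9 CPM in HCC4006P1 and 90.2 CPM in HCC4006P2. Of the 17 epithelial transcription and splicing regulators tested, 16 were called higher in HCC4006GR, 11 of them at least 4-fold, and 1 higher in HCC4006ER. That exception, named after its value was seen, was CREB3L1, an endoplasmic reticulum stress factor that activates collagen genes, with 156 and 172 CPM in HCC4006ER and 63.5 CPM in HCC4006GR. The median difference of the list was -2.96, against -0.35 in the parental stocks and -0.02 over all genes in the resistant lines.

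Cell junctions followed the same order. In the list of tight and adherens junction genes 18 of 20 were called higher in HCC4006GR, 11 at least 4-fold, and 0 higher in HCC4006ER, with a median of -2.54. The other two were CLDN3 and PARD6B, named after their values were seen. The claudin gene CLDN7 had 0.961 and 1.03 CPM in HCC4006ER, 176 CPM in HCC4006GR, 159 CPM in HCC4006P1 and 202 CPM in HCC4006P2, and CLDN1 had 1.01 and 1.75 CPM in HCC4006ER, 207 CPM in HCC4006GR, 51.1 CPM in HCC4006P1 and 111 CPM in HCC4006P2. P-cadherin (CDH3) had 5.52 and 6.32 CPM in HCC4006ER, 562 CPM in HCC4006GR, 247 CPM in HCC4006P1 and 454 CPM in HCC4006P2. All 3 were above 50 CPM in both stocks and under 7 CPM in both HCC4006ER libraries. Of 11 desmosome genes 8 were called higher in HCC4006GR, 5 at least 4-fold, among them JUP, the plaque protein plakoglobin, with 40.7 and 35.6 CPM in HCC4006ER, 466 CPM in HCC4006GR, 278 CPM in HCC4006P1 and 259.9 CPM in HCC4006P2. The EPCAM and matriptase list had the lowest median of all, -5.45, with 11 of 11 genes called higher in HCC4006GR and 10 at least 4-fold, while its parental median was -0.02. SPINT1, the inhibitor of matriptase, had 4.50 and 3.70 CPM in HCC4006ER, 405 CPM in HCC4006GR, 286 CPM in HCC4006P1 and 266 CPM in HCC4006P2.

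Not every epithelial marker moved this way. Of the 13 epithelial genes of the EMT signature that the study used for these cell lines, which is no independent evidence of a direction, 11 were called higher in HCC4006GR, 7 of them at least 4-fold. KRT18, which was called higher in HCC4006ER and is named with KRT8 after its value was seen, had 519.7 and 659 CPM in HCC4006ER, 285 CPM in HCC4006GR, 1489.9 CPM in HCC4006P1 and 370.4 CPM in HCC4006P2, and its partner KRT8 had 989 and 1203 CPM in HCC4006ER, 386 CPM in HCC4006GR, 2771 CPM in HCC4006P1 and 668 CPM in HCC4006P2. Both keratins were highest in HCC4006P1, and the HCC4006ER libraries lay between HCC4006GR and HCC4006P1. GSK3B, the remaining signature gene, had 164 and 159 CPM in HCC4006ER and 167 CPM in HCC4006GR. KRT7, a keratin of lung adenocarcinoma, had 127 and 183 CPM in HCC4006ER, 2206 CPM in HCC4006GR, 1906 CPM in HCC4006P1 and 1674 CPM in HCC4006P2.

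The E-box CAGGTG, which reads CACCTG on the other strand, is the sequence that ZEB and SNAI factors are known to bind, and it was searched in both directions in RefSeq promoter windows of 300 bases (250 before and 50 after a transcript's start, GRCh38.p14). Of all 35116 windows 20.6% held it, as did 19.1% of the 16979 windows of tested protein-coding genes. For the genes called and at least 4-fold higher in HCC4006GR the share was 28.8% of 1013 windows, and for those higher in HCC4006ER it was 15.4% of 448. A gene with several windows enters these shares several times. Counted by gene, 24.6% of 11537 tested protein-coding genes held it in any window. The share was 37.7% of the 657 such genes higher in HCC4006GR and 21.1% of the 279 higher in HCC4006ER. Of 39 epithelial list genes called and at least 4-fold higher in HCC4006GR, 21 had an entry, and CDH1 had none. The motif was held by 11 of their 31 windows, and by 11 of the 21 genes. Of the genes whose window holds the motif, the 3 with the largest difference are shown (other epithelial genes, such as KRT19 and ST14, differed more), lower in HCC4006ER by 6.47 (CLDN7), 6.32 (SPINT1) and 5.75 (AP1M2, a subunit of an epithelial sorting adaptor) on the log2 scale. The capitals mark the motif on either strand. The windows are chr17:7262429-7262728 (minus strand), chr15:40844227-40844526 (plus strand) and chr19:10587263-10587562 (minus strand), and a match is a run of letters and not a shown binding site.
CLDN7: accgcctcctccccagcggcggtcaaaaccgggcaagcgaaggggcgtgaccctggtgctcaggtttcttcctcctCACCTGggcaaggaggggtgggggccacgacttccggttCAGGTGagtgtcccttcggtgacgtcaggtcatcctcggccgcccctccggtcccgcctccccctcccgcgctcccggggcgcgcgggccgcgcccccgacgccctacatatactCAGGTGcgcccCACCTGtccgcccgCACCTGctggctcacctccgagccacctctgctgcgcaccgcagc
SPINT1: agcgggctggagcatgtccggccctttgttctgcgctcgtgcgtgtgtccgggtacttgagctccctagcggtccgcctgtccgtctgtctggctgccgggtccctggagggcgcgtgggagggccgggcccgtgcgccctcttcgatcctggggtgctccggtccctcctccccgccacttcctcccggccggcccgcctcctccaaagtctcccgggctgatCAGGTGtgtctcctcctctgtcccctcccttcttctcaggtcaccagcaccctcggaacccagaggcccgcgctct
AP1M2: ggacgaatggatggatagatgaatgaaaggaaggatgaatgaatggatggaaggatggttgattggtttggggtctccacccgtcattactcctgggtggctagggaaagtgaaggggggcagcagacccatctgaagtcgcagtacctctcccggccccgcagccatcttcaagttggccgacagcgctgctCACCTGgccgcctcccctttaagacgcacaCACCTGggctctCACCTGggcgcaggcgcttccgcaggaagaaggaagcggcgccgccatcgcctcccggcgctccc
The motif occurs 5 times in the CLDN7 window, once in that of SPINT1 and 3 times in that of AP1M2.

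Mesenchymal genes did not form the mirror image, since both resistant lines carried many of them. Of 35 mesenchymal signature genes tested, 23 were called higher in HCC4006ER, 10 of them at least 4-fold, and 10 were called higher in HCC4006GR, 4 of them at least 4-fold, where 31.8% and 30.6% of all genes were called. Both without HCC4006ER replicate 1 and without replicate 2, these counts were 15 and 7, and they were 21 and 9 with all complete libraries. This signature, too, was the study's own choice for these cell lines. The median was 0.92 in the resistant lines and -0.29 in the stocks. Against its own stock, the median member was 1.99 higher in HCC4006ER and 1.39 higher in HCC4006GR. VIM, the intermediate filament vimentin, had 1433 and 1516 CPM in HCC4006ER, 604 CPM in HCC4006GR, 598 CPM in HCC4006P1 and 160.3 CPM in HCC4006P2. The difference of the resistant lines (1.28, edgeR adjusted p = 1.41e-27 with 5 libraries and 0.000492 with all complete libraries in the fit) was smaller than that of the stocks (1.89). N-cadherin (CDH2) had 118 and 129 CPM in HCC4006ER, 87.4 CPM in HCC4006GR, 55.5 CPM in HCC4006P1 and 9.26 CPM in HCC4006P2. It was called higher in HCC4006ER (edgeR log2 fold change 0.53 ± 0.12 (SE)), but the call was lost with all complete libraries in the fit (log2 fold change 0.57, adjusted p = 0.115), and likewise without HCC4006ER replicate 1 or replicate 2 (adjusted p = 0.196 and 0.325).

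All 9 EMT transcription factors tested were called higher in HCC4006ER, 3 of them at least 4-fold, with a median of 0.92 and a parental median of 0.71. ZEB2, a repressor of CDH1, had 78.7 and 67.3 CPM in HCC4006ER, 15.6 CPM in HCC4006GR, 0.872 CPM in HCC4006P1 and 0.147 CPM in HCC4006P2. Both resistant lines stood above both stocks, with HCC4006ER 4.67 times higher than HCC4006GR (edgeR adjusted p = 6.97e-49 with 5 libraries and 0.000304 with all complete libraries in the fit). ZEB1 had 20.4 and 18.8 CPM in HCC4006ER, 13.8 CPM in HCC4006GR, 6.10 CPM in HCC4006P1 and 0.588 CPM in HCC4006P2, and the resistant lines were 1.42-fold apart. TWIST1, a mesoderm factor, had 45.6 and 44.3 CPM in HCC4006ER, 6.49 CPM in HCC4006GR, 8.62 CPM in HCC4006P1 and 0.220 CPM in HCC4006P2, so that HCC4006GR lay below HCC4006P1. SNAI2 had 54.7 and 45.97 CPM in HCC4006ER, 26.1 CPM in HCC4006GR, 8.72 CPM in HCC4006P1 and 21.1 CPM in HCC4006P2. Under DESeq2 5 of the 9 factors were called, with all complete libraries 8, and without HCC4006ER replicate 1 or without replicate 2 4 of the 9. The call of ZEB1 was lost under DESeq2 (adjusted p = 0.372) and in the last 2 fits (adjusted p = 0.155 and 0.124). That of SNAI2 was lost in the last 2 fits (adjusted p = 0.149 and 0.1), with log2 fold changes of 0.90 and 1.11 against 0.97 ± 0.14 (SE) with 5 libraries.

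The genes that stood farthest towards HCC4006ER included matrix proteins and their proteases. The 12 protein-coding genes with the largest difference were ADAMTS12, LUM, CNN1, COLEC12, BEX1, SCN9A, ADAMTS2, NNMT, GFRA1, OLFML2B, CXCL12 and TENM3, with differences from 5.08 to 6.70. LUM encodes the collagen-binding proteoglycan lumican and had 131 and 97.9 CPM in HCC4006ER, 0.199 CPM in HCC4006GR, 0.0513 CPM in HCC4006P1 and 0.0735 CPM in HCC4006P2. CNN1, the actin-binding calponin of smooth muscle, had 141 and 157 CPM in HCC4006ER, 1.59 CPM in HCC4006GR, 0 CPM in HCC4006P1 and 0 CPM in HCC4006P2. COLEC12, a scavenger receptor, had 59.2 and 47.4 CPM in HCC4006ER and 0 counts in HCC4006GR and both stocks, at least 268-fold higher against the 3 counts taken as detected in HCC4006GR. All 12 genes were under 5 CPM in HCC4006GR, and all but TENM3 at or under 2 CPM in both stocks. TENM3, an adhesion protein of neurons, had 85.1 and 84.2 CPM in HCC4006ER, 1.52 CPM in HCC4006GR, 14.1 CPM in HCC4006P1 and 0.0735 CPM in HCC4006P2, so that its difference of the stocks (3.81) had the same direction. CXCL12, the ligand of CXCR4, had 191 and 167 CPM in HCC4006ER, 4.24 CPM in HCC4006GR, 0 CPM in HCC4006P1 and 0.441 CPM in HCC4006P2.

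Collagens and other matrix genes differed in both directions. Of 27 collagen chains 17 were called higher in HCC4006ER, 8 at least 4-fold, and 9 higher in HCC4006GR, 4 at least 4-fold, where 31.8% and 30.6% of all genes were called. These counts were 15 and 7 with all complete libraries, 9 and 5 without HCC4006ER replicate 1, and 10 and 5 without replicate 2. COL12A1, a chain of fibril-associated collagen, had 1473 and 1431 CPM in HCC4006ER, 67.1 CPM in HCC4006GR, 13.4 CPM in HCC4006P1 and 16.3 CPM in HCC4006P2, and the fibrillar chain COL3A1 had 51.6 and 35.4 CPM in HCC4006ER, 0.596 CPM in HCC4006GR, 0 CPM in HCC4006P1 and 0.220 CPM in HCC4006P2. COL1A1, another fibrillar chain, was called higher in HCC4006GR, by a smaller margin, with 44.5 and 35.9 CPM in HCC4006ER, 53.6 CPM in HCC4006GR, 15.1 CPM in HCC4006P1 and 24.2 CPM in HCC4006P2. COL17A1, a chain that anchors epithelial cells to their basement membrane, had the opposite pattern with 1.57 and 1.34 CPM in HCC4006ER, 360.4 CPM in HCC4006GR, 26.98 CPM in HCC4006P1 and 143 CPM in HCC4006P2. LAMB3, a laminin chain that serves the same anchorage, was also higher in HCC4006GR, with 27.5 and 25.6 CPM in HCC4006ER, 1054 CPM in HCC4006GR, 1006 CPM in HCC4006P1 and 187 CPM in HCC4006P2. HCC4006GR was above HCC4006P2 and HCC4006ER below HCC4006P1. LAMB3 lost its call without HCC4006ER replicate 1 (adjusted p = 0.0798) and without replicate 2 (adjusted p = 0.0853), where the spread comes from other cell lines. Its log2 fold change was -5.28 and -5.21 there, close to the -5.28 ± 0.12 (SE) of the 5 libraries. Among 12 integrins 8 were called higher in HCC4006GR and 2 in HCC4006ER, led by ITGB6, the epithelial integrin that activates latent TGF-beta, with 0.506 and 0.462 CPM in HCC4006ER, 941 CPM in HCC4006GR, 29.6 CPM in HCC4006P1 and 449 CPM in HCC4006P2. Without HCC4006ER replicate 1 and without replicate 2, 5 and 4 integrins were called higher in HCC4006GR and 1 in HCC4006ER, against 5 and 1 with all complete libraries. Among 19 matrix proteases and inhibitors 13 were called higher in HCC4006GR, 9 at least 4-fold, and 3 in HCC4006ER. MMP10, stromelysin-2, had 0.0506 and 0 CPM in HCC4006ER, 68.8 CPM in HCC4006GR, 0 CPM in HCC4006P1 and 0 CPM in HCC4006P2, and MMP7, matrilysin, had 2.78 and 2.36 CPM in HCC4006ER, 146 CPM in HCC4006GR, 1.08 CPM in HCC4006P1 and 73.9 CPM in HCC4006P2, a gene already different between the stocks.

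**Figure D2:**
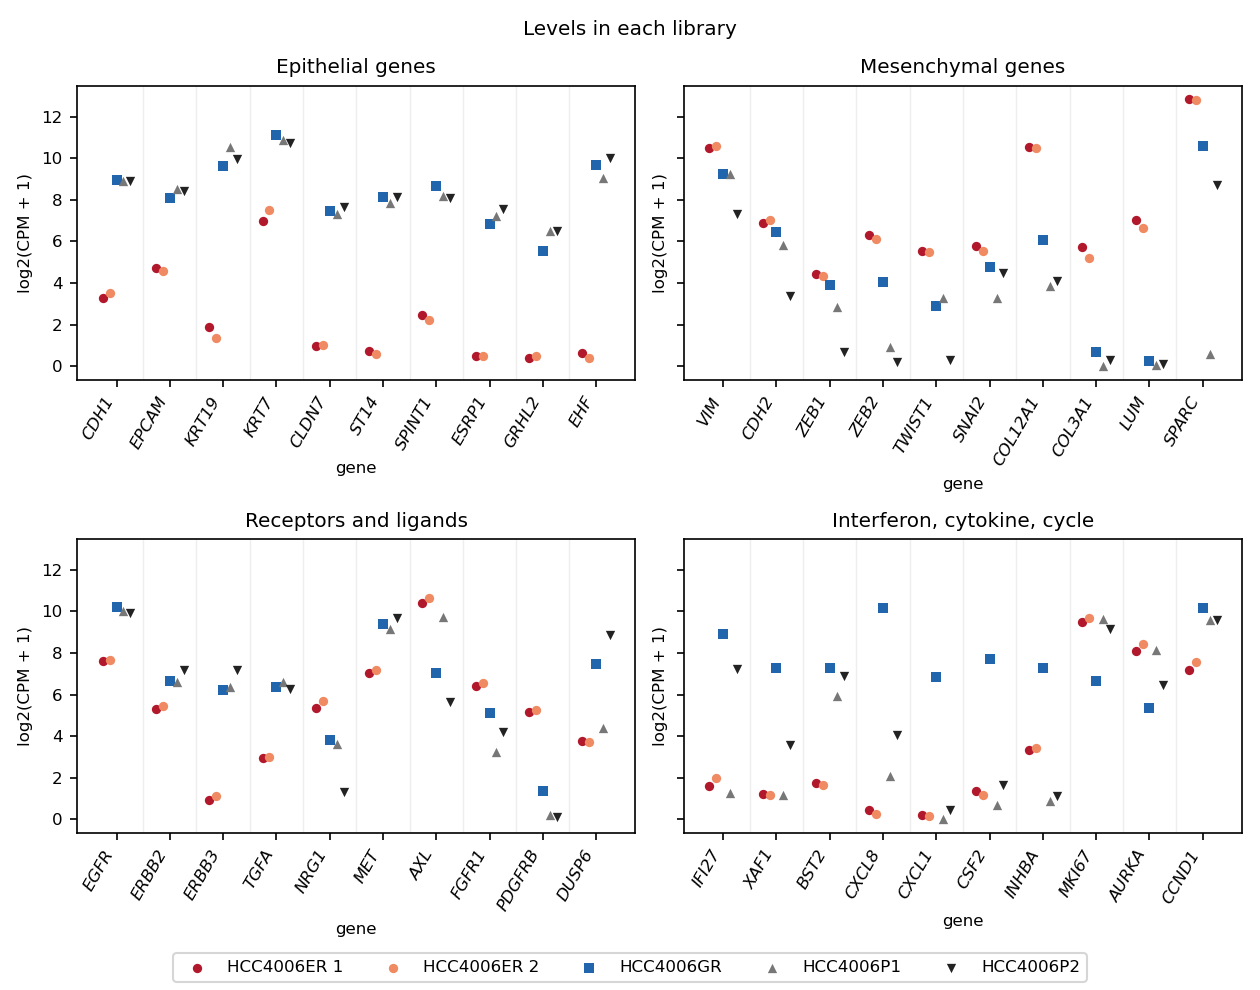
Level in each of the 5 libraries as log2(CPM + 1), with 10 genes in each of 4 groups and 1 symbol per library (red and orange circles for the HCC4006ER libraries, blue squares for HCC4006GR, grey and black triangles for HCC4006P1 replicate 2 and HCC4006P2). In the epithelial panel HCC4006GR lies with the stocks and both HCC4006ER libraries lie below them, and in the cytokine panel HCC4006GR stands apart for CXCL8, CXCL1, CSF2 and INHBA.

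The target of both drugs was itself lower in HCC4006ER. EGFR had 194 and 201 CPM in HCC4006ER, 1192 CPM in HCC4006GR, 1036 CPM in HCC4006P1 and 962 CPM in HCC4006P2, 6.04 times higher in HCC4006GR (edgeR log2 fold change -2.57 ± 0.11 (SE), adjusted p = 1e-121 with 5 libraries and 2.70e-05 with all complete libraries in the fit), while the stocks differed by 0.11. ERBB3, the kinase-poor partner that couples the family to PI3K, had 0.911 and 1.18 CPM in HCC4006ER, 72.4 CPM in HCC4006GR, 82.00 CPM in HCC4006P1 and 145 CPM in HCC4006P2. ERBB2 had 38.9 and 42.7 CPM in HCC4006ER, 98.96 CPM in HCC4006GR, 96.5 CPM in HCC4006P1 and 143 CPM in HCC4006P2. All 3 receptors tested were thus called lower in HCC4006ER, by between 1.26 and 5.17 on the log2 scale, and ERBB4 did not pass the filter. Of their 9 ligands 5 were called higher in HCC4006GR, with TGFA at 6.78 and 6.93 CPM in HCC4006ER, 81.1 CPM in HCC4006GR, 94.98 CPM in HCC4006P1 and 75.1 CPM in HCC4006P2, and 2 higher in HCC4006ER. The counts were 3 and 2 with all complete libraries, 2 and 1 without HCC4006ER replicate 1, and 1 and 0 without replicate 2. One of the ligands higher in HCC4006ER was NRG1, the ligand of ERBB3, with 39.97 and 50.8 CPM in HCC4006ER, 13.04 CPM in HCC4006GR, 11.4 CPM in HCC4006P1 and 1.47 CPM in HCC4006P2, where the stocks differed in the same direction (2.33).

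Genes that report ERK signalling were mostly lower in HCC4006ER. Of 18 tested 14 were called higher in HCC4006GR, 6 at least 4-fold, and 2 higher in HCC4006ER, with a median of -1.26 against 0.13 in the stocks. DUSP6, the phosphatase that ERK induces against itself, had 12.4 and 12.02 CPM in HCC4006ER, 179 CPM in HCC4006GR, 20.3 CPM in HCC4006P1 and 468 CPM in HCC4006P2, and here HCC4006P1 was nearly as low as HCC4006ER. DUSP4, a related phosphatase, had 16.7 and 14.8 CPM in HCC4006ER, 216 CPM in HCC4006GR, 202 CPM in HCC4006P1 and 196 CPM in HCC4006P2, with HCC4006ER alone set apart. CCND1, cyclin D1, had 142 and 189 CPM in HCC4006ER, 1142 CPM in HCC4006GR, 772 CPM in HCC4006P1 and 760.0 CPM in HCC4006P2. The list had 12 and 13 calls towards HCC4006GR without HCC4006ER replicate 1 and without replicate 2, and 1 towards HCC4006ER in each.

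Receptors known to bypass EGFR differed in both directions, 13 of 21 genes called higher in HCC4006GR and 7 in HCC4006ER. Over all genes these shares were 30.6% and 31.8%, so the share towards HCC4006ER was near that of all genes. AXL, a receptor kinase linked to EMT and to inhibitor tolerance, had 1346 and 1580.2 CPM in HCC4006ER, 132 CPM in HCC4006GR, 834 CPM in HCC4006P1 and 48.8 CPM in HCC4006P2. HCC4006ER was 11.1 times higher than HCC4006GR, and HCC4006P1 already exceeded HCC4006P2 by 4.07. PDGFRB, a receptor of fibroblasts and pericytes, had 34.5 and 37.1 CPM in HCC4006ER, 1.59 CPM in HCC4006GR, 0.154 CPM in HCC4006P1 and 0.0735 CPM in HCC4006P2. FGFR1 had 85.4 and 93.9 CPM in HCC4006ER, 33.2 CPM in HCC4006GR, 8.56 CPM in HCC4006P1 and 17.6 CPM in HCC4006P2. FGFR2, its epithelial relative, had 0.557 and 0.616 CPM in HCC4006ER, 23.96 CPM in HCC4006GR, 6.97 CPM in HCC4006P1 and 41.7 CPM in HCC4006P2. FGFR1 was thus higher in HCC4006ER and FGFR2 in HCC4006GR, while FGFR1 had the higher CPM of both genes in each resistant line. Each resistant line had more FGFR1 and less FGFR2 than its own stock. MET, the receptor of hepatocyte growth factor and a known bypass of EGFR, had 128 and 144 CPM in HCC4006ER, 662 CPM in HCC4006GR, 559 CPM in HCC4006P1 and 828 CPM in HCC4006P2. Both HCC4006ER libraries lay below all other libraries in MET. Without HCC4006ER replicate 1 or without replicate 2, 5 of the 21 were called higher in HCC4006GR and 3 in HCC4006ER, against 12 and 5 with all complete libraries. The call of PDGFRB was lost in these fits (adjusted p = 0.0625 and 0.0702), while its log2 fold change was 4.62 and 4.48, against 4.51 ± 0.24 (SE) with 5 libraries.

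Inflammatory and interferon genes were higher in HCC4006GR, as lists without a member called in the other direction. All 16 cytokines tested were called higher in HCC4006GR, 14 at least 4-fold, with a median of -4.30. CXCL8 (chromosome 4, 74606236 to 74609433 on GRCh37), the neutrophil chemokine interleukin-8, had the largest difference of all protein-coding genes, with 0.354 and 0.205 CPM in HCC4006ER, 1144 CPM in HCC4006GR, 3.23 CPM in HCC4006P1 and 15.7 CPM in HCC4006P2. CSF2, the growth factor GM-CSF, had 1.57 and 1.28 CPM in HCC4006ER, 211 CPM in HCC4006GR, 0.615 CPM in HCC4006P1 and 2.13 CPM in HCC4006P2, and CXCL1, a further neutrophil chemokine, had 0.152 and 0.103 CPM in HCC4006ER, 114 CPM in HCC4006GR, 0 CPM in HCC4006P1 and 0.367 CPM in HCC4006P2. In these 3 genes HCC4006GR stood alone, and the other 4 libraries lay between 0 and 15.7 CPM. The median cytokine was 4.41 higher in HCC4006GR than in HCC4006P2 and 0.00 apart between HCC4006ER and HCC4006P1. With CXCL8, the 12 protein-coding genes farthest towards HCC4006GR included ITGB6, CEACAM6, EHF, LCN2, SLC34A2, KRT19, XDH, TMC5, ADGRF5, SERPINA3 and ST14, with differences from -9.81 to -7.45. LCN2, an iron-binding protein of inflamed epithelia, had 0.152 and 0.103 CPM in HCC4006ER, 359 CPM in HCC4006GR, 21.6 CPM in HCC4006P1 and 20.9 CPM in HCC4006P2, and SERPINA3, an acute-phase protease inhibitor, had 1.62 and 1.39 CPM in HCC4006ER, 446 CPM in HCC4006GR, 2.10 CPM in HCC4006P1 and 15.4 CPM in HCC4006P2. XDH, the enzyme that makes uric acid, had 0.202 and 0.205 CPM in HCC4006ER, 258 CPM in HCC4006GR, 7.69 CPM in HCC4006P1 and 44.7 CPM in HCC4006P2.

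All 20 interferon-stimulated genes were likewise called higher in HCC4006GR, 17 at least 4-fold, with a median of -3.82. Here the stocks differed too, with a median of -0.91 and 8 of 20 genes at least 4-fold higher in HCC4006P2. IFI27 had 2.02 and 2.98 CPM in HCC4006ER, 478 CPM in HCC4006GR, 1.38 CPM in HCC4006P1 and 146 CPM in HCC4006P2, and XAF1, an interferon-induced regulator of apoptosis, had 1.32 and 1.23 CPM in HCC4006ER, 151 CPM in HCC4006GR, 1.28 CPM in HCC4006P1 and 11.1 CPM in HCC4006P2. BST2, tetherin, had 2.33 and 2.11 CPM in HCC4006ER, 153 CPM in HCC4006GR, 59.7 CPM in HCC4006P1 and 118 CPM in HCC4006P2, and was the one of these 3 in which HCC4006ER lay far below its own stock. The median member was 0.01 apart between HCC4006ER and HCC4006P1, and 1.91 higher in HCC4006GR than in HCC4006P2. Of 11 genes of MHC class I presentation 11 were called higher in HCC4006GR, with a median of -1.26. The peptide transporter TAP1 had 31.6 and 29.4 CPM in HCC4006ER, 126 CPM in HCC4006GR, 30.00 CPM in HCC4006P1 and 43.5 CPM in HCC4006P2, and B2M, the light chain of MHC class I, had 933 and 928 CPM in HCC4006ER, 2580.5 CPM in HCC4006GR, 1175 CPM in HCC4006P1 and 1203 CPM in HCC4006P2. Without HCC4006ER replicate 1 or without replicate 2, 6 of these 11 were called, and 9 with all complete libraries.

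Cell cycle genes lay mostly higher in HCC4006ER. Of 22 cell cycle and replication genes 17 were called higher in HCC4006ER, 10 at least 4-fold, and 1 higher in HCC4006GR, with a median of 1.22 against 0.42 in the stocks. MKI67, the proliferation antigen Ki-67, had 724 and 817 CPM in HCC4006ER, 100.2 CPM in HCC4006GR, 802 CPM in HCC4006P1 and 575 CPM in HCC4006P2. In MKI67 HCC4006GR was below all other libraries, while HCC4006ER lay at the level of its stock. Over the list, both lines lay below their stocks, with a median difference of -0.73 in HCC4006ER and -1.68 in HCC4006GR. The mitotic kinase AURKA had 273 and 349 CPM in HCC4006ER, 40.1 CPM in HCC4006GR, 279 CPM in HCC4006P1 and 87.01 CPM in HCC4006P2, and CCNB1, cyclin B1, had 157 and 182 CPM in HCC4006ER, 25.1 CPM in HCC4006GR, 248 CPM in HCC4006P1 and 77.2 CPM in HCC4006P2. These calls rested on the spread between the HCC4006ER libraries. Over all 18183 genes, 3964 were called higher in HCC4006ER when all complete libraries were fitted. With all complete libraries in the fit 4 of 22 were called and MKI67 missed the threshold (log2 fold change 3.01 against 2.97 ± 0.13 (SE) with 5 libraries, adjusted p = 0.0768), and without HCC4006ER replicate 1 or without replicate 2 1 of 22 was called. CDKN2C, an inhibitor of cyclin D kinases, had 27.8 and 35.03 CPM in HCC4006ER, 1.99 CPM in HCC4006GR, 20.5 CPM in HCC4006P1 and 9.11 CPM in HCC4006P2, and CDKN1B, the inhibitor p27, had 69.02 and 67.5 CPM in HCC4006ER, 24.1 CPM in HCC4006GR, 36.00 CPM in HCC4006P1 and 37.3 CPM in HCC4006P2. Both inhibitors were also called higher in HCC4006ER.

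Lung lineage genes differed between the stocks as well as between the resistant lines. NKX2-1, the lineage factor of lung adenocarcinoma, had 0 counts in both HCC4006ER libraries and in HCC4006P1, 18.6 CPM in HCC4006GR and 113 CPM in HCC4006P2, at least 121-fold higher in HCC4006GR than the 3 counts taken as detected in a HCC4006ER library. SLC34A2, the phosphate transporter of alveolar type 2 cells, had 0.0506 and 0.0514 CPM in HCC4006ER, 293 CPM in HCC4006GR, 0 CPM in HCC4006P1 and 3083 CPM in HCC4006P2. NAPSA, an aspartic protease of the same cells, had 0.253 and 0.411 CPM in HCC4006ER, 1.52 CPM in HCC4006GR, 0.0513 CPM in HCC4006P1 and 143 CPM in HCC4006P2. Each of these 3 markers was near 0 in HCC4006ER and HCC4006P1, and each was lower in HCC4006GR than in HCC4006P2. Of 15 lung lineage genes tested 12 were called higher in HCC4006GR, 6 at least 4-fold, with a median of -1.25, and the parental median was -2.23 with 8 genes at least 4-fold higher in HCC4006P2. LAMP3, a lysosomal protein of type 2 cells that interferon also induces, did not follow this order, with 1.01 and 1.54 CPM in HCC4006ER, 46.1 CPM in HCC4006GR, 3.28 CPM in HCC4006P1 and 5.36 CPM in HCC4006P2. Of the epithelial markers of the tissue, KRT7 was present in all 5 libraries, and CDH1, EPCAM and KRT19 were low in HCC4006ER. Of 9 mucins and CEACAMs 9 were called higher in HCC4006GR, 7 at least 4-fold, with a median of -4.19 and a parental median of -2.11, and 5 were also called towards HCC4006GR beyond the parental difference and 1 towards HCC4006ER. CEACAM6, a surface glycoprotein of gut and lung epithelium, had 0 and 0.0514 CPM in HCC4006ER, 614 CPM in HCC4006GR, 58.6 CPM in HCC4006P1 and 7405 CPM in HCC4006P2, and MUC20 had 0.202 and 0.154 CPM in HCC4006ER, 69.8 CPM in HCC4006GR, 46.3 CPM in HCC4006P1 and 96.2 CPM in HCC4006P2.

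Other lists gave smaller or mixed differences, and several of their counts lay near the 31.8% and 30.6% of all genes called higher in HCC4006ER and in HCC4006GR. Cholesterol and fatty acid synthesis genes were called higher in HCC4006ER in 12 of 16 and in HCC4006GR in 2, none at least 4-fold, with a median of 0.62 below the parental 1.27, and 7 of 16 were called with all complete libraries and 3 without HCC4006ER replicate 1 or without replicate 2. SCD, the stearoyl-CoA desaturase, had 690.4 and 619 CPM in HCC4006ER, 287 CPM in HCC4006GR, 2072 CPM in HCC4006P1 and 452 CPM in HCC4006P2. In the drug metabolism and NRF2 list 13 of 20 were called higher in HCC4006GR and 2 in HCC4006ER, with CYP1B1, a cytochrome P450, at 299.7 and 234 CPM in HCC4006ER, 17.1 CPM in HCC4006GR, 9.44 CPM in HCC4006P1 and 2.50 CPM in HCC4006P2. Of 15 contractile and filament genes 10 were called higher in HCC4006ER and 5 in HCC4006GR, with MYL9, a myosin light chain, at 53.8 and 53.7 CPM in HCC4006ER, 2.58 CPM in HCC4006GR, 0.718 CPM in HCC4006P1 and 5.07 CPM in HCC4006P2. YAP and TEAD targets were higher in HCC4006ER in 7 of 12 and in HCC4006GR in 1. TGF-beta pathway genes were split, 5 against 7 of 18. Among those called higher in HCC4006GR was INHBA, the activin A subunit, with 9.11 and 9.76 CPM in HCC4006ER, 151 CPM in HCC4006GR, 0.821 CPM in HCC4006P1 and 1.18 CPM in HCC4006P2, so that both resistant lines exceeded both stocks. BCL2 family genes were called higher in HCC4006GR in 7 of 14 and in HCC4006ER in 3, none at least 4-fold. Matrix glycoproteins (9 higher in HCC4006ER and 10 in HCC4006GR of 25), collagen-modifying enzymes (5 and 5 of 11), efflux transporters (3 and 2 of 7), G1 regulators (6 and 2 of 9), methyltransferases and TET enzymes (2 and 1 of 6), keratins (2 and 8 of 11) and neuroendocrine genes (1 and 3 of 6) made up the remaining lists, with at most 4 members at least 4-fold apart on either side. Most of these counts were lower with all complete libraries in the fit, where the spread comes mostly from other cell lines. Some were lower again in that fit with 1 HCC4006ER library left out. The count over all genes was lower in these fits too. With all complete libraries, without replicate 1 and without replicate 2, contractile genes gave 10 and 4, 4 and 3, and 5 and 3 calls towards HCC4006ER and HCC4006GR. In the same order, matrix glycoproteins gave 8 and 6, 6 and 2, and 6 and 2, and collagen-modifying enzymes 4 and 3, 2 and 2, and 1 and 1. The BCL2 family gave 1 and 5, 1 and 3, and 0 and 3, and the NRF2 list 1 and 9, 1 and 8, and 1 and 8. G1 regulators (4 and 1), methyltransferases and TET enzymes (1 and 0) and neuroendocrine genes (1 and 1) gave the same counts in all 3 of these fits. Reference genes were not level either, with 4 of 9 housekeeping genes called higher on each side and RPLP0, a ribosomal protein gene, at 1126 and 1159 CPM in HCC4006ER, 371 CPM in HCC4006GR, 1026 CPM in HCC4006P1 and 493 CPM in HCC4006P2. They were 3 and 2 with all complete libraries, 2 and 1 without HCC4006ER replicate 1, and 1 and 1 without replicate 2.

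**Figure D3:**
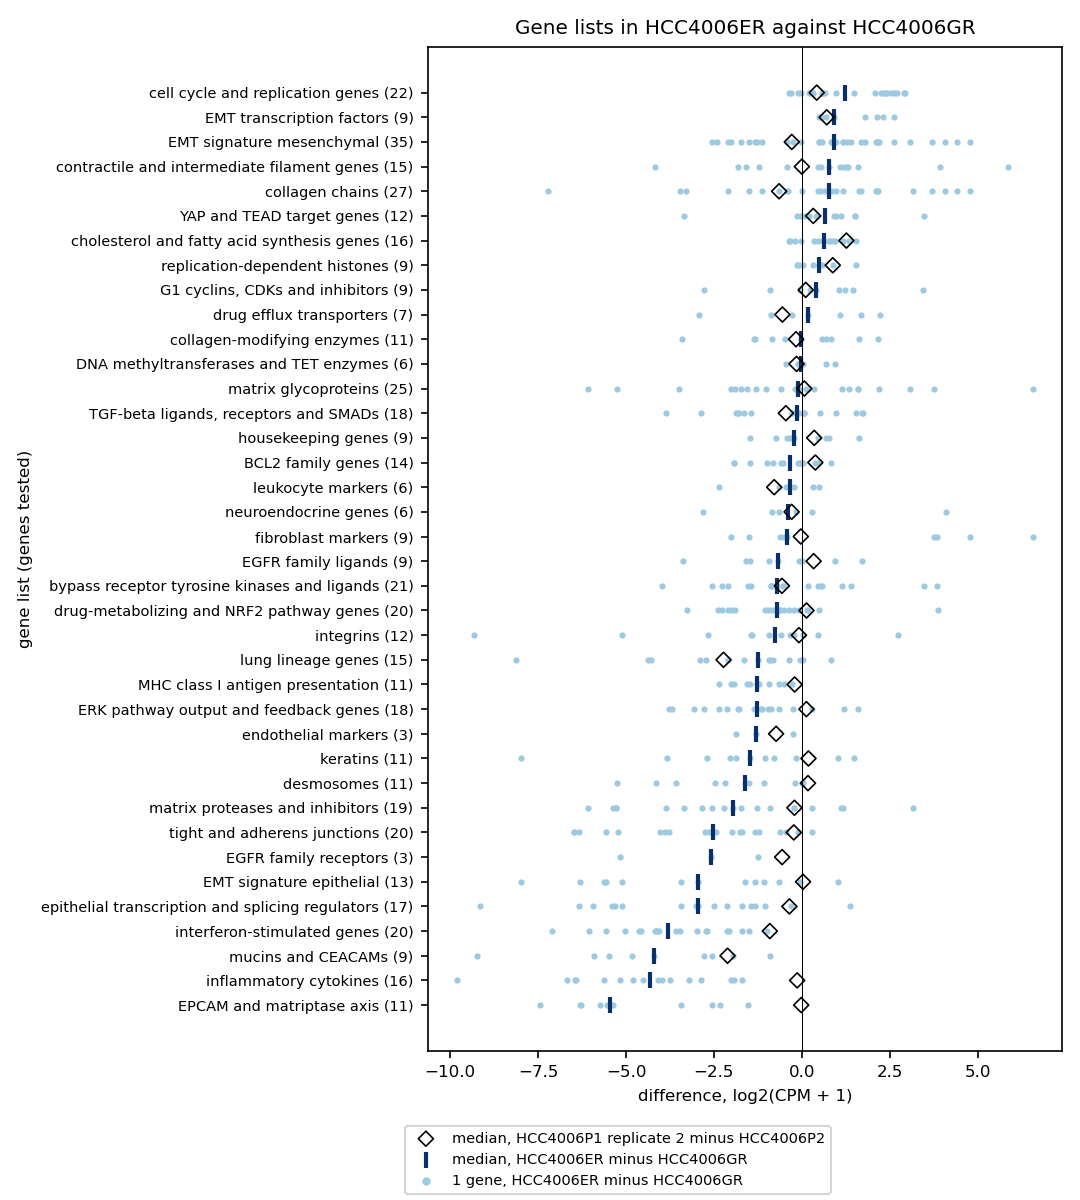
Difference of HCC4006ER minus HCC4006GR as log2(CPM + 1) for each tested gene of the gene lists (points), with the list's median (bar) and the median parental difference, HCC4006P1 replicate 2 minus HCC4006P2 (diamond). The EPCAM and matriptase list has the lowest median (-5.45) beside a parental median near 0, and the cell cycle list the highest (1.22).

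Markers of other cell types were looked at because lumican, decorin and PDGFRB also mark fibroblasts. The 9 fibroblast markers summed to 283 and 222 CPM in HCC4006ER, 72.4 CPM in HCC4006GR, 20.3 CPM in HCC4006P1 and 31.4 CPM in HCC4006P2. Of these 9, 4 were called higher in HCC4006ER (LUM, COL3A1, PDGFRB and DCN) and 5 higher in HCC4006GR, against 4 and 3 with all complete libraries, 3 and 2 without HCC4006ER replicate 1 and 3 and 1 without replicate 2. DCN had 15.3 and 10.1 CPM in HCC4006ER and 0 CPM in HCC4006GR and both stocks. Of the 5 markers higher in HCC4006GR, FAP, with 0.152 and 0 CPM in HCC4006ER, 0.662 CPM in HCC4006GR, 0.103 CPM in HCC4006P1 and 0.294 CPM in HCC4006P2, and THY1, with 0.202 and 0 CPM in HCC4006ER, 3.44 CPM in HCC4006GR, 0.359 CPM in HCC4006P1 and 0.0735 CPM in HCC4006P2, were under 1 CPM in HCC4006ER. Endothelial markers summed to at most 1.26 CPM in HCC4006ER, 8.08 CPM in HCC4006GR, 0.410 CPM in HCC4006P1 and 25.1 CPM in HCC4006P2. Most of the sum in HCC4006P2 was KDR, with 23.7 CPM. PTPRC, the pan-leukocyte antigen CD45, was under 1 CPM in all 5 libraries, although the 7 leukocyte markers summed to between 70.4 and 105 CPM. Replication-dependent histones, whose mRNA lacks a poly(A) tail and which can mark the selection step, summed to 173 and 157 CPM in HCC4006ER, 115 CPM in HCC4006GR, 75.7 CPM in HCC4006P1 and 30.8 CPM in HCC4006P2, and mitochondrial genes took 28363 and 27668 CPM in HCC4006ER against 44089 CPM in HCC4006GR, 54573 CPM in HCC4006P1 and 55488 CPM in HCC4006P2, so that HCC4006ER was the lowest. By exon length, the median difference of protein-coding genes was 0.15 in the shortest of 5 classes of equal size and -0.11 in the longest, and that of the stocks was 0.00 and -0.29. Of 9 tested histones 5 were called higher in HCC4006ER (2 with all complete libraries, 1 without HCC4006ER replicate 1 and 0 without replicate 2), of 3 endothelial markers 2 were called higher in HCC4006GR, and of 6 leukocyte markers 2 were called on each side (0 and 1 with all complete libraries, and also without HCC4006ER replicate 1 or without replicate 2). The part of these measures in the results was not tested.

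Setting each resistant line beside its own stock showed which line stood apart. Of the 387 genes at least 4-fold higher in HCC4006ER, 227 (58.7%) were at least 4-fold above HCC4006P1 while HCC4006GR was not as far below HCC4006P2, and 23 (5.94%) were the reverse. For 132 (34.1%) neither line was 4-fold from its stock. Of the 942 genes at least 4-fold higher in HCC4006GR, 323 (34.3%) were at least 4-fold below HCC4006P1 in HCC4006ER alone, 158 (16.8%) at least 4-fold above HCC4006P2 in HCC4006GR alone, 17 (1.80%) both and 444 (47.1%) neither. In 241 of the 942 (25.6%) the stocks were already 4-fold apart in the same direction, where 3.98% of all tested genes were 4-fold higher in HCC4006P2. For the HCC4006ER side it was 38 of the 387 (9.82%), where 0.957% of all tested genes were 4-fold higher in HCC4006P1. With TMM-scaled library sizes, the parental counts over all genes moved from 723 and 174 to 590 and 235. The shares of 25.6% and 9.82% are therefore not to be compared directly. CDH1, KRT19 and ST14 are examples of genes that stood 4-fold from the stock in HCC4006ER alone, and CXCL8 and CSF2 in HCC4006GR alone.

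**Figure D4:**
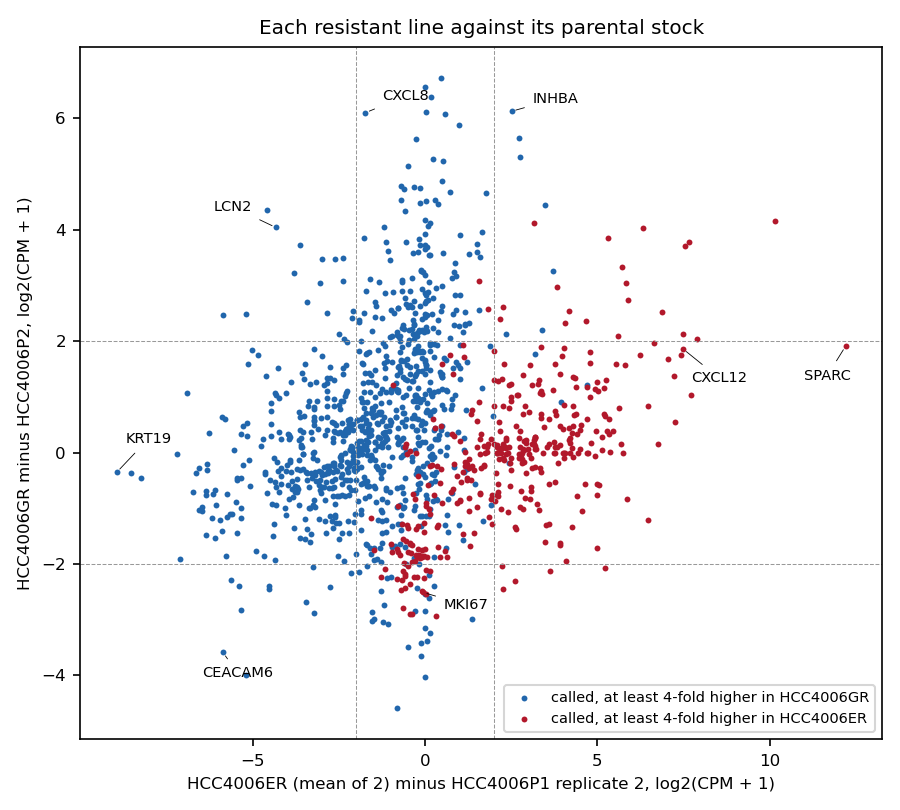
HCC4006ER (mean of 2 libraries) minus HCC4006P1 replicate 2 on the horizontal axis and HCC4006GR minus HCC4006P2 on the vertical axis, as log2(CPM + 1), for the 1329 genes called and at least 4-fold apart between the resistant lines. Dashed lines mark 4-fold differences. The 323 blue genes on the left, such as KRT19, are low in HCC4006ER against its stock, and those at the top, such as CXCL8, are high in HCC4006GR against its stock.

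Whether the resistant lines differed by more or by less than their stocks was tested as (HCC4006ER minus HCC4006GR) minus (HCC4006P1 minus HCC4006P2). A gene called in either direction can therefore be one in which the resistant lines differ less than the stocks. This test called 3886 genes (21.4%) towards HCC4006ER and 4078 (22.4%) towards HCC4006GR. The balance depended on the scaling, since with library totals in place of TMM 61.8% of the calls lay towards HCC4006ER, against 48.8%. The number called was 3569 with DESeq2 and 3469 with all complete libraries, against 7964, and 1350 without HCC4006ER replicate 1 and 1496 without replicate 2, against the 3469. Among the 4-fold genes, 282 of 387 and 763 of 942 were called in the same direction, and 18 and 47 in the opposite direction. These genes were picked by HCC4006ER minus HCC4006GR, which is also a term of this test. The choice therefore favours calls in the same direction, and no conclusion is drawn from these counts. The protein-coding genes farthest towards HCC4006ER were SPARC, GJA1, HPGD, SLC1A7, SULF1 and CMBL. SPARC, a collagen-binding matrix protein, had 7269.9 and 7029 CPM in HCC4006ER, 1558 CPM in HCC4006GR, 0.513 CPM in HCC4006P1 and 414 CPM in HCC4006P2. Both resistant lines were high, and the difference of the stocks (-8.10) was larger than that of the resistant lines (2.20). GJA1, connexin 43, had 494 and 407 CPM in HCC4006ER, 196 CPM in HCC4006GR, 0.103 CPM in HCC4006P1 and 138 CPM in HCC4006P2, and HPGD, the enzyme that inactivates prostaglandins, had 6.43 and 4.37 CPM in HCC4006ER, 3.77 CPM in HCC4006GR, 0.410 CPM in HCC4006P1 and 305 CPM in HCC4006P2. The protein-coding genes farthest towards HCC4006GR were KRT19, LCN2, TGM2, EHF, SFN and CXCL8. TGM2, a matrix-crosslinking transglutaminase, had 19.4 and 24.1 CPM in HCC4006ER, 498 CPM in HCC4006GR, 1307 CPM in HCC4006P1 and 88.5 CPM in HCC4006P2, opposite to its order in the stocks. SFN, the epithelial 14-3-3 protein sigma, had 1.37 and 1.49 CPM in HCC4006ER, 174 CPM in HCC4006GR, 293 CPM in HCC4006P1 and 81.7 CPM in HCC4006P2. Genes with 0 counts in both stocks, such as CNN1, ADAMTS12 and COLEC12, have no parental ratio and could not be called in this test. In 35 genes the lines lay at least 4-fold to opposite sides of their stocks, 21 of them down in HCC4006ER and up in HCC4006GR, LCN2, TGM2 and LAMB3 among them.

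Along the chromosomes, 2 neighbourhoods of genes that differed together are described. They were picked after their values were seen and get no test. In windows of 25 neighbouring protein-coding genes the median difference lay between -0.49 and 0.61 for the central 90% of 2761 windows, and 6 windows were below -1 and 6 above 1. The highest window was on chromosome 19, with 1.25, and others came near it, such as 1.004 on chromosome 22. The lowest window was on chromosome 11, with -2.74 and a parental median of -0.69. From EIF3M to TRAF6 (chr11:32605344-36531822, GRCh37) 29 of 30 tested protein-coding genes were called lower in HCC4006ER, 25 at least 4-fold, and their median was -2.72 against HCC4006GR and -2.52 against HCC4006P1. CD44, the hyaluronan receptor, had 445 and 522 CPM in HCC4006ER, 9031 CPM in HCC4006GR, 6129.9 CPM in HCC4006P1 and 9869.8 CPM in HCC4006P2. CAPRIN1, an RNA-binding protein of dividing cells, had 478 and 499 CPM in HCC4006ER, 3007 CPM in HCC4006GR, 3432 CPM in HCC4006P1 and 3803 CPM in HCC4006P2, and CD59, the complement inhibitor, had 213 and 208 CPM in HCC4006ER, 4753 CPM in HCC4006GR, 3192 CPM in HCC4006P1 and 3909.9 CPM in HCC4006P2. The neighbour RCN1, just outside, had 184 and 197 CPM in HCC4006ER, 235 CPM in HCC4006GR, 182 CPM in HCC4006P1 and 166 CPM in HCC4006P2, close together in all 5 libraries. These 30 genes held 0.178% and 0.186% of the counts in HCC4006ER, 2.31% in HCC4006GR, 1.78% in HCC4006P1 and 2.53% in HCC4006P2.

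On chromosome 19, from FKBP8 to ZNF682 (chr19:18642561-20150314, GRCh37), 32 of 39 tested protein-coding genes were called higher in HCC4006ER and 3 higher in HCC4006GR. Only 3 were at least 4-fold apart, and the median was 1.11. The stocks differed in the opposite direction, with a median of -1.63. UPF1, the helicase of nonsense-mediated decay, had 604 and 651 CPM in HCC4006ER, 210.3 CPM in HCC4006GR, 122 CPM in HCC4006P1 and 412 CPM in HCC4006P2. The neighbouring gene ELL had 24.8 and 24.2 CPM in HCC4006ER, 22.2 CPM in HCC4006GR, 22.4 CPM in HCC4006P1 and 20.1 CPM in HCC4006P2. At UPF1 both HCC4006ER libraries lay above the others and HCC4006P1 below them, and the 5 libraries were alike at ELL. Past the other end, ZNF90 had 39.2 and 36.9 CPM in HCC4006ER, 13.4 CPM in HCC4006GR, 4.87 CPM in HCC4006P1 and 31.9 CPM in HCC4006P2, so that this end was not sharp. DNA copy number and promoter methylation of these cells were not analysed here. Leaving out both neighbourhoods moved the count of genes called and at least 4-fold apart from 1329 to 1301, an alternative chosen after the data were seen.

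**Figure D5:**
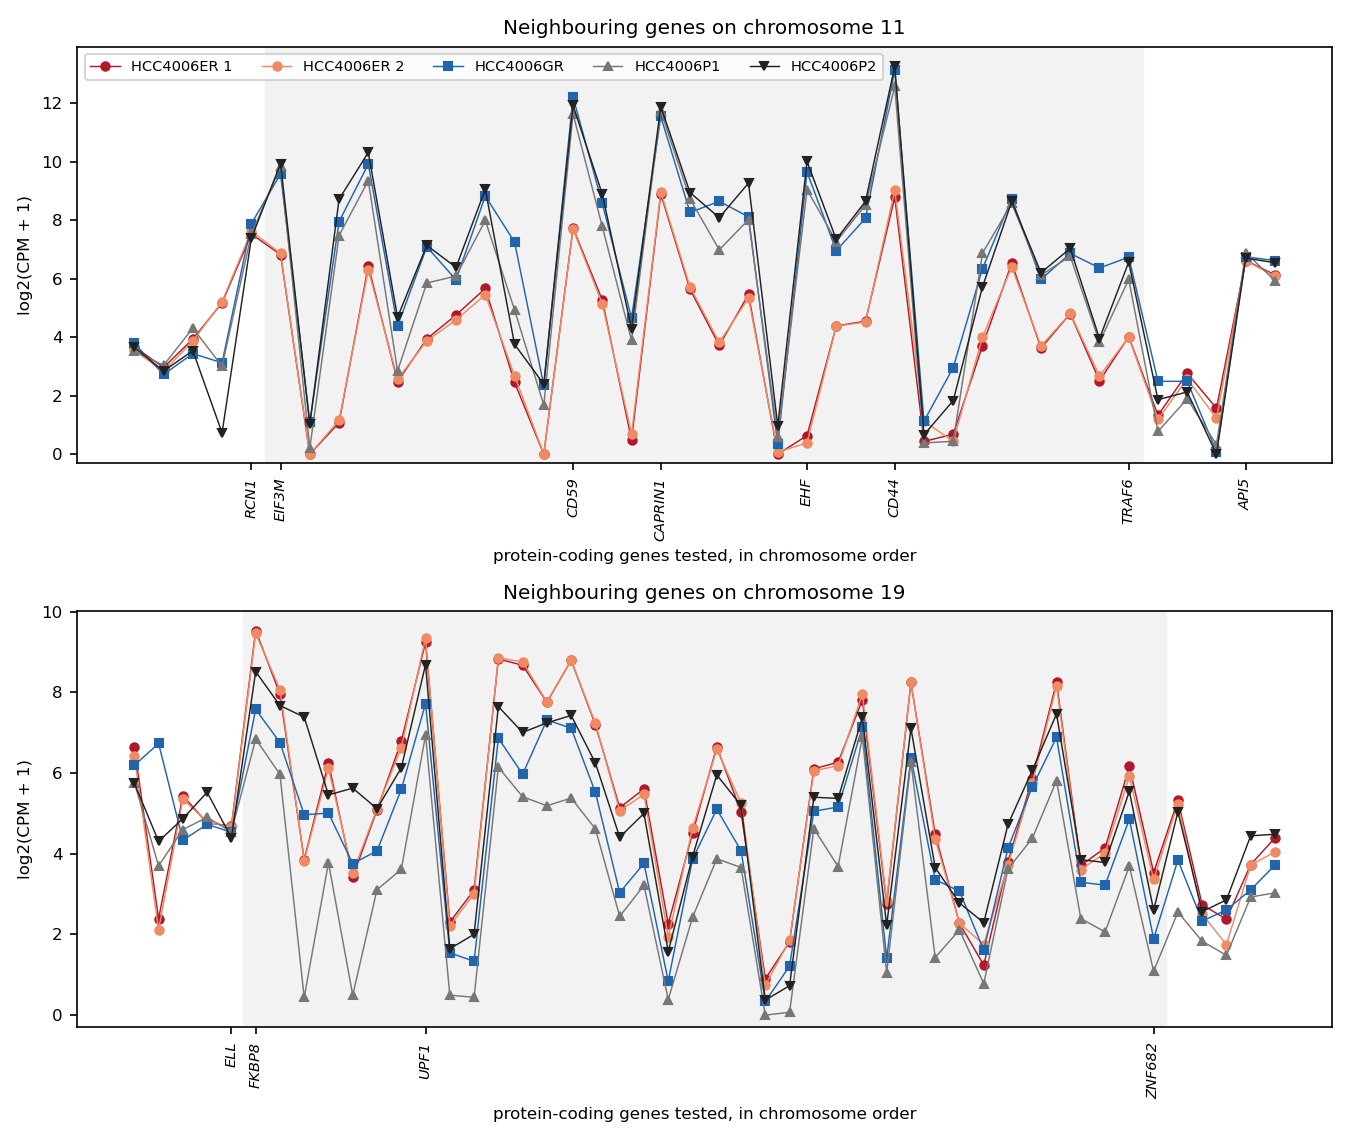
Level of neighbouring tested protein-coding genes in chromosome order as log2(CPM + 1), with 1 line per library, the neighbourhood shaded and only the genes named in the text labelled (1 gene of chromosome 19 is not shown). On chromosome 11 both HCC4006ER lines run below the other 3 from EIF3M to TRAF6 at most genes and meet them at RCN1 and API5, and on chromosome 19 HCC4006ER lies highest and HCC4006P1 lowest at most genes.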

How the data were processed

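Poly(A) mRNA of cultured cells was sequenced, per the labels with a stranded kit. The study's methods also name a kit for transcript ends, and which libraries it served is not given in the sources used here. The authors deposited raw counts of reads per gene for each library, and the submitters' processing notes name Bowtie, TopHat, SAMtools and HTSeq and the build hg19, without versions. Rows that name no gene (outside genes, ambiguous, or with several alignments) stayed out of totals and tests, those outside genes with shares of 7.80% to 15.6%, and genes with near-identical copies are therefore uncertain. Of 53515 genes, 45100 (84.3%) matched a GENCODE annotation on GRCh37. The members and gene lists were chosen with earlier results of these data known.

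CPM were computed from the total on genes, with a pseudocount of 1 CPM. The test was edgeR 4.0.16 (quasi-likelihood, TMM, filterByExpr) over 5 libraries with 1 residual degree of freedom, each cell line a group, with calls at 0.05 after Benjamini-Hochberg adjustment. The common dispersion was 0.00453, and the median prior degrees of freedom were infinite. Genes of like level therefore shared 1 spread, and very small p-values depend on it. On simulated counts with 200 genes changed 4-fold among 18183, the direct test recovered 175 with 4.89% of its calls false, and the test beyond the stocks 157 with 3.09% false. All 5 simulated libraries were drawn with the spread that the fit itself had estimated. The simulation therefore cannot show whether the libraries without a replicate vary like HCC4006ER. With 2 libraries on 1 side and 1 on the other, an exact permutation test over samples cannot reach the threshold and was not used. Parental differences have no test. Depth limits low genes only by counting error.

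Named were the 12 protein-coding genes with the largest difference in each direction, the 3 called genes with the largest difference in each of 38 lists, the 6 protein-coding genes in each direction of the test beyond the stocks, and 17 fixed genes, of which the text gives a selection. AP1M2, CLDN3, PARD6B, CREB3L1, GSK3B, KRT8, KRT18, NAPSA, COL1A1, DCN, FAP, THY1 and the genes of the chromosomal stretches were named after their values were seen. Lists were matched by symbol or RefSeq synonym. Listed symbols without a match, and some further items, are not reported here. Alternatives used DESeq2 1.42.0, other scalings, filters and sets of libraries, a pseudocount of 0.1 CPM and each HCC4006ER library left out, the last fitted with all other complete libraries, since 5 libraries less 1 have no residual degrees of freedom. R 4.3.3, limma 3.58.1, Python 3.11.15, numpy 2.4.6, pandas 2.3.3, scipy 1.17.1 and matplotlib 3.10.9 were used.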

Additional observations from a re-analysis of the deposited data

Results flagged for a closer look

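The change with resistance differed between the pairs in 7964 genes by the test of the difference itself (edgeR, adjusted p under 0.05), and the protein-coding genes with the largest values, 6 in each direction, are given here. Each pair has 1 library on at least 1 side. Towards HCC4006ER, the difference beyond the parental difference on the log2(CPM + 1) scale was 10.30 for SPARC, 8.17 for GJA1, 8.17 for HPGD, 7.70 for SLC1A7, 7.31 for SULF1 and 7.13 for CMBL. Towards HCC4006GR it was -8.59 for KRT19, -8.37 for LCN2, -8.33 for TGM2, -8.18 for EHF, -7.997 for SFN and -7.83 for CXCL8. In GJA1, SPARC and SLC1A7 the value comes mostly from HCC4006P1, where these genes had 0.103, 0.513 and 0 CPM. In CXCL8 it comes mostly from HCC4006GR, which was 6.10 above HCC4006P2.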

How the results depend on the processing

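No paired analysis was possible because HCC4006GR carries no replicate number and the groups compared share fewer than 2 numbers. The count of genes called between HCC4006ER and HCC4006GR was 11360, and 6175 with DESeq2 in place of edgeR, with 4015 to 4315 when 1 HCC4006ER library was left out. Such fits use all other complete libraries and take their spread from other cell lines, so they change 2 choices at once and compare with the 7648 of all complete libraries. It stayed within 1.5 times under the 6 other settings (7648 to 11311). The count at least 4-fold apart was 1329, and 2439 with a pseudocount of 0.1 CPM, and it ranged from 1240 to 1241 with 1 library left out and from 1301 to 1329 under the others. The count beyond the parental difference was 7964, and 3569 with DESeq2, 3469 with all complete libraries in the fit and 3388 with HCC4006P1 replicate 1 added on the genes before its missing stretch (14215 genes, so fewer genes tested), with 1350 to 1496 when 1 HCC4006ER library was left out, and 6197 to 7901 under the others. The count of genes 4-fold apart between the stocks was 897, and 2073 with a pseudocount of 0.1 CPM. A smaller pseudocount enlarges the differences of low genes by construction, and the cause of the other changes was not tested. Of the named genes, 0 changed sign, and a named gene kept its direction and lost its call in 68 fits, and kept both in 1162. The median of 2 lists that lie near 0, collagen-modifying enzymes and methyltransferases, changed sign with 1 HCC4006ER library left out. Genes under 1 CPM are limited by depth.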
